A study of Mus musculus with 3 samples.

Results

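*Tspo* (ENSMUSG00000041736) encodes the translocator protein, and it is 1 of the 27998 genes counted in this single cell RNA sequencing (scRNAseq) of mouse meninges. Its row was read in barcodes with at least 500 unique molecular identifiers (UMIs, 1 per captured RNA molecule), a mitochondrial share under 8.3% and a number of genes within the limits the study set. That left 7057 cells, which held 16029 *Tspo* UMIs, so *Tspo* ranked 190 among all genes. The question was which meningeal cell types carry this transcript, and whether its level differed after stress. All mice were male C57BL/6J aged 10 to 12 weeks. HC mice stayed unstressed in their home cage, and CSD mice went through 14 days of chronic social defeat and were chosen as stress-susceptible. Each library was a pool of 4 mice, giving HC replicate 1, HC replicate 2 and CSD replicate 1. With 1 CSD pool, the effect of stress and what is particular to that pool cannot be told apart. The cells were live nucleated singlets sorted after enzymatic digestion, with no surface marker in the gate.

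TSPO sits in the outer mitochondrial membrane, next to the voltage-dependent anion channels. It binds cholesterol, porphyrins and a set of synthetic ligands that gave it its older name, the peripheral benzodiazepine receptor. Radiolabelled ligands of TSPO are used in positron emission tomography (PET) as a readout of neuroinflammation, and the signal is usually read as one of microglia and macrophages. The protein is also known in blood myeloid cells, in endothelium and in steroid-producing tissue, and its physiological role is still debated.

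*Tspo* lies on the plus strand at chr15:83563592-83574203 (GRCm38, GENCODE vM21), the build called mm10 in the submitters' processing notes. Its longer transcript, Tspo-201, has 4 exons and 837 bases, of which 507 are coding and 245 follow the stop codon. Libraries of this kind read the 3′ end of each RNA, so the last exon is where most *Tspo* UMIs arise. The final 120 coding bases, shown because they border that end, occupy chr15:83573839-83573958 on the plus strand, within exon 4. They are written 5′ to 3′ with the stop codon in capitals.
Tspo-201 coding end: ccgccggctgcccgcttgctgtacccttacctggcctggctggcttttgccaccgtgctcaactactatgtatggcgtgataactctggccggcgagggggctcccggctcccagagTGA
No run of 30 bases in either annotated *Tspo* transcript occurs in the transcripts of another gene, so reads of a near-identical copy were not a concern. *Mcat*, on the opposite strand, overlaps only the 5′ end of *Tspo*, and the next gene, *Ttll12*, also on the opposite strand, ends 887 bases past the 3′ end of *Tspo*, so that their 3′ ends face each other.

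HC replicate 1 and HC replicate 2 gave 2599 and 1702 cells and CSD replicate 1 gave 2756, at medians of 2503, 2212 and 2400.5 UMIs per cell. Total depth was 9891861, 8814690 and 10206236 UMIs. Barcodes of at most 100 UMIs, which hold free RNA and no cell, took 7.87%, 24.1% and 5.48% of those UMIs. Cell barcodes shared between pairs of libraries numbered 3 to 8, where 6.00 to 9.72 would be shared by chance. Clustering without *Tspo*, its listed partners and the genes that the study labels as changed in neutrophils gave 22 clusters. All but clusters 16 and 18 were named after markers, as 18 classes with 6731 cells, and those 2 clusters, with 326 cells, stayed unnamed. The microglia-like class carried its defining markers, with *P2ry12* and *Tmem119* each seen in 93.5% of its cells. *Mrc1* was seen in 50.1% of border macrophage-like cells and in 2.78% of the other named cells, and *Ccr2* in 79.1% of monocyte-like cells and 11.1% of the others. Preneutrophil-like cells of HC replicate 2 stood apart, with a median of 973 UMIs against 10481 and 10773.5 in the other libraries.

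*Tspo* UMIs were found in every class, over a range of mean levels of 225 to 1071 CPM (UMIs of the gene scaled to the total UMIs of that class and library). Monocyte-like cells had the highest level of the 18 classes, and microglia-like cells the lowest but one. In monocyte-like cells the level was 812 CPM in HC replicate 1, it was 980 in HC replicate 2, and CSD replicate 1 had 1420 (mean 1071 ± 314, SD, n = 3 libraries). In microglia-like cells it was 254, 309 and 320 CPM (294 ± 35.3). The 2 sets of values did not overlap, and the lowest monocyte-like value lay far above the highest microglia-like value. Border macrophage-like cells, which line the vessels and membranes of the brain's borders, had 450, 537 and 586 CPM (525 ± 68.9).

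Neutrophil stages lay between monocyte-like and microglia-like cells. Immature neutrophil-like cells, rich in secondary granule genes such as *Ltf* and *Camp*, had 486, 545 and 790 CPM (607 ± 161). Mature neutrophil-like cells, marked by *Cxcr2* and *Il1b*, had 406, 426 and 851 CPM (561 ± 251). Their HC values lay close together and the CSD value stood well apart from both. Preneutrophil-like cells, the dividing stage before them, had 584, 643 and 832 CPM (686 ± 130). Among the remaining classes, mast cell- or basophil-like cells had a mean of 817, NK-like cells 698, conventional dendritic (cDC)-like cells 684 and T-like cells 684 CPM. The mast cell- or basophil-like value rests on 40 cells. Plasmacytoid dendritic (pDC)-like cells had 556, and mature B-like, pro-B-like and pre-B-like cells had 399, 388 and 380 CPM. Fibroblast-like cells had 348 and olfactory neuron-like cells, which carried markers of nasal sensory neurons, 225 CPM, the lowest of the 18. Myeloid progenitor-like cells, precursors of the granulocytes and monocytes, had 591 and erythroid-like cells 486 CPM, from 78 and 62 cells. In 4 of 7 other settings for cells, clusters and counts the myeloid progenitor-like class stood at 1107 to 1346 CPM. In those settings 121 to 151 cells stayed unnamed, against 326 here. Unnamed cluster 16, outside the 18 classes, held 1109, 1327 and 1570 CPM, above monocyte-like cells in every library. Whether its cells joined the myeloid progenitor-like class in those settings was not tested.

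The ranges over the 3 libraries overlapped between every pair of neighbours in this order. Monocyte-like cells came first of the 18 classes within each of the 3 libraries. Under the 7 other settings they stood first or second in mean CPM, with the myeloid progenitor-like class above them in 4. Olfactory neuron-like cells came last in each library. Microglia-like cells were 17th in both HC libraries and 16th in CSD replicate 1. The class that moved most in rank was the mature neutrophil-like one, 11th and 13th in the HC libraries and 4th in CSD replicate 1. NK-like cells went from 3rd in both HC libraries to 8th.

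**Figure D1:**
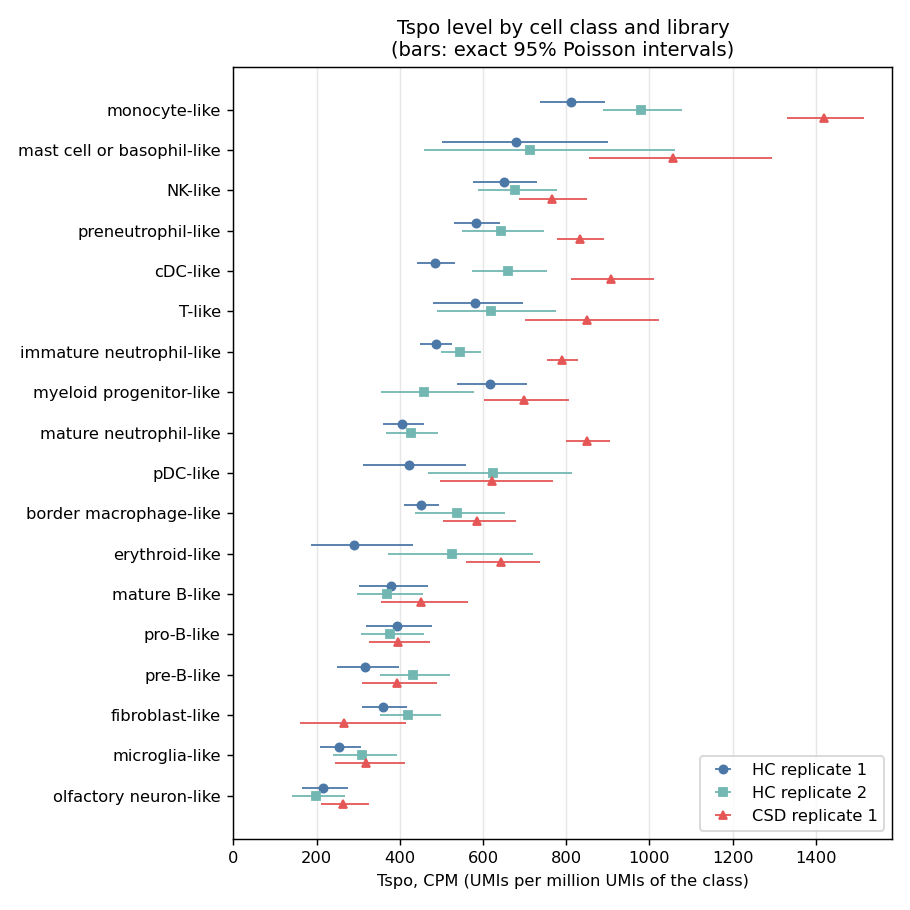
*Tspo* level in each of the 18 named cell classes, in CPM on a linear axis from 0, with 1 point per library and bars for exact 95% Poisson intervals, which cover counting error only. Monocyte-like cells lie at 812 to 1420 CPM and microglia-like cells at 254 to 320 CPM, and the CSD point lies far to the right of both HC points in both neutrophil-like rows.

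The share of cells with a *Tspo* UMI was also compared at a common depth. Each cell was thinned to 500 UMIs, and monocyte-like cells then held a *Tspo* UMI in 35.8 to 59.2% of cells over the 3 libraries. The range was 14.5 to 27.0% in border macrophage-like cells, 9.68 to 20.4% in microglia-like cells and 3.28 to 15.7% in olfactory neuron-like cells. The lower classes changed places within libraries. In HC replicate 2 the share was 20.4% in microglia-like and 14.5% in border macrophage-like cells, and in CSD replicate 1 it was 9.68% in microglia-like and 15.7% in olfactory neuron-like cells. These 4 shares rest on 9 to 19 cells with a *Tspo* UMI each. Before thinning, 39.8%, 48.4% and 39.8% of microglia-like cells held 1 or more *Tspo* UMIs. No class could serve as one known to lack the gene. Free RNA therefore has to be read from the empty droplets, where *Tspo* stood at 550, 586 and 779 CPM, above its level in microglia-like cells of every library. From fibroblast markers, free RNA was estimated at 25.7%, 27.2% and 13.3% of the UMIs of microglia-like cells. With that much of the empty-droplet profile subtracted, their *Tspo* level was 151, 205 and 248 CPM, and that of monocyte-like cells was 870, 1085 and 1485 CPM. In olfactory neuron-like cells 104, 64.0 and 189 CPM remained (mean 119).

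Levels were then compared between classes within libraries. UMIs were summed per library and class and tested with edgeR's quasi-likelihood test, with library as a block, TMM scaling and Benjamini-Hochberg adjustment over all genes tested. *Tspo* was lower in microglia-like than in monocyte-like cells, with a log2 difference of -1.91 (standard error 0.12, adjusted p = 7.94e-53), a 3.75-fold difference, in 3 of 3 libraries. In that comparison 50.2% of genes were called in either direction. It was lower in microglia-like than in border macrophage-like cells, by a log2 difference of -1.02 (standard error 0.13, adjusted p = 1.96e-13), where 36.5% of genes were called. Against neutrophil-like cells, the immature and mature classes summed, the difference was -1.88 (standard error 0.15, adjusted p = 2.87e-09), with 59.8% of genes called. Thus all 3 comparisons placed *Tspo* lower in microglia-like cells, with 14 of 14 alternatives past the threshold in each.

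Scaling mattered for the size of these differences. When only library totals were used, the median of all genes shifted to 0.98 on the log2 scale between microglia-like and neutrophil-like cells, against 0.04 with TMM. The *Tspo* difference was -0.93 on that scale, and it stood at percentile 10.6 of all genes with TMM and 10.7 with library totals. With TMM, *Tspo* was higher in neutrophil-like than in border macrophage-like cells, by a log2 difference of 0.83 (standard error 0.15, adjusted p = 0.000213, 54.6% of genes called). With library totals this was 0.13 (adjusted p = 0.455), where the median of all genes was -0.71. Neutrophil-like and monocyte-like cells differed by -0.15 (standard error 0.09, adjusted p = 0.172, 58% of genes called). With library totals the difference was -0.87 (adjusted p = 8.35e-07), and the median of all genes was -0.71. The scaling changed the size and the call of both differences but not their sign, which was kept in 14 of 14 alternatives. The split of calls moved as well. With TMM 1799 genes were called higher and 1815 lower in microglia-like than in neutrophil-like cells, against 3538 and 770 with library totals. In neutrophil-like cells 1711 were higher and 1699 lower than in monocyte-like cells, against 707 and 3289. Against border macrophage-like cells the counts were 1787 and 1806, which became 859 and 3297. For microglia-like against border macrophage-like cells, 562 higher and 576 lower became 772 and 380.

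Within the neutrophil lineage the fitted differences of level were small. By CPM, mature neutrophil-like cells lay below immature ones in both HC libraries (406 against 486 and 426 against 545). In CSD replicate 1 they lay above them (851 against 790). Fitted over all libraries, mature cells were lower, with a log2 difference of -0.22 (standard error 0.08, adjusted p = 0.021 by edgeR, 34.1% of genes called). This difference was -0.44 (adjusted p = 6.7e-06) without CSD replicate 1. It was -0.13 and no longer past the threshold without either HC library (adjusted p = 0.31 without HC replicate 1 and 0.254 with the other left out). The call was also lost by DESeq2 (adjusted p = 0.119), with library totals (0.237) and when thinned (0.21), and it held in 9 of 14 alternatives. Preneutrophil-like cells differed from neutrophil-like cells by 0.07 (standard error 0.10, adjusted p = 0.607, 49.3% of genes called). That difference was 0.23 (adjusted p = 0.0445) with library totals, and it turned below 0 in 6 of 14 alternatives. Library totals moved the calls from 981 higher and 769 lower to 1183 and 569 in mature against immature cells. They moved them from 1451 and 1389 to 1818 and 1062 in preneutrophil-like against neutrophil-like cells.

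The share of all *Tspo* UMIs that each class supplied follows both its level and its number of cells. Neutrophil-like cells supplied 18.7% and 21.7% in the HC libraries in order and 34.4% in CSD replicate 1, and they made up 30.3%, 33.0% and 47.8% of the cells. Monocyte-like cells supplied 9.21%, 13.8% and 11.2% from 4.19%, 5.41% and 4.54% of the cells. Microglia-like cells supplied 2.25%, 2.09% and 0.719%, from 7.16%, 5.46% and 3.37% of the cells. The CSD library had the highest neutrophil-like share and the lowest microglia-like share of the 3. These shares describe what was recovered after digestion and sorting, not the intact tissue.

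In neutrophil-like cells *Tspo* stood higher in CSD than in both HC libraries, but the difference did not pass the test across all genes. From these data the study proposed a raised expression of *Tspo* and of accessory proteins. Its Mann-Whitney test compared CSD with HC cells, while the test here compared libraries. By CPM the HC libraries had 459 and 506 in order and CSD replicate 1 had 811. On the TMM-normalized scale HC replicate 1 had 536 CPM and HC replicate 2 had 546, while CSD replicate 1 had 959. On that TMM-normalized scale the HC libraries differed by 0.03 in log2, while CSD lay 0.83 above their mean (standard error 0.13), a 1.77-fold difference. The unadjusted p was 0.00221 and the adjusted p = 0.239 by edgeR's quasi-likelihood test over 1192 genes. By rise, *Tspo* ranked 13 of those genes, and by p it ranked 10. Of all genes tested, 0% were called higher in CSD by edgeR, with 85 higher at an unadjusted p under 0.05, and DESeq2 called 5. The one gene called, *Mgp*, a fibroblast matrix gene named here because it was the only call, was lower in CSD, with a log2 difference of -3.28 (adjusted p = 0.0133). *Mgp* was also lower in CSD in microglia-like (-4.71), NK-like (-3.32) and T-like cells (-2.93). All 16 alternatives kept *Tspo* higher in CSD, and 3 of the 12 with a test put it past the threshold. These were the 5% mitochondrial limit (0.88, adjusted p = 0.000332), library totals (0.71, adjusted p = 0.0402) and no filter on genes (1.05, adjusted p = 2.98e-08). Over the 12 the adjusted p ran up to 0.877.

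The same direction held in each neutrophil cluster. Cluster 1, the larger mature one with 1105 cells, had 403, 419 and 853 CPM, and its CSD value was far outside the HC pair. It was the only 1 of the 4 clusters in which *Tspo* rose past the threshold, with a log2 difference of 1.10 (standard error 0.19, adjusted p = 0.000476 by edgeR and 0.0496 by DESeq2). In this cluster 1.86% of genes were called higher. Cluster 6, the other mature cluster, shallow at a median of 879.5 UMIs, had 421, 455 and 839 CPM (log2 difference 0.97, adjusted p = 0.14 by edgeR, 0.448% of genes called higher). Cluster 2, the larger immature one, had 496, 566 and 793 CPM (0.66, adjusted p = 0.206, 0% called higher). Cluster 10, immature and rich in *Mmp8*, had 440, 461 and 774 CPM (0.86, adjusted p = 0.0994, 0.695% called higher). No CSD Poisson interval, which covers counting error and not the spread between pools, overlapped an HC interval in any of these 4 clusters. Whether the rise differed between the clusters was not tested. The standard error in cluster 1 was larger than the 0.14 of the mature class as a whole, where a difference of 1.09 was not called by edgeR. The lower adjusted p in cluster 1 thus did not come from a smaller standard error.

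Taken by stage, the difference was 1.09 in mature neutrophil-like cells (standard error 0.14, adjusted p = 0.0632 by edgeR), a 2.13-fold higher level in CSD, with 0.35% of genes called higher. The 3 genes called higher there, named because they were so few, were *Wfdc17*, *Ifitm1* and *Lrg1*. DESeq2 gave *Tspo* an adjusted p of 0.0494 in these cells. In immature neutrophil-like cells the difference was 0.70 (standard error 0.14, adjusted p = 0.374), with 0% of genes called higher. The test of the difference between the stages, added after the data were seen, gave 0.47 more in the mature stage (standard error 0.12, adjusted p = 0.00902 by edgeR, 1.19% of genes called). It passed in 5 of 11 alternatives with a test and did not with DESeq2 (0.43, adjusted p = 1.00), library totals (0.40, adjusted p = 0.184) or subtraction of free RNA (0.59, adjusted p = 0.293). Its lowest adjusted p was 0.00138, with no filter on genes. After thinning to 500 UMIs, a *Tspo* UMI was left in 18.0%, 18.8% and 35.6% of mature neutrophil-like cells. In immature cells it was left in 22.6%, 27.7% and 30.1%. The exact Clopper-Pearson 95% interval of the CSD share was 32.2 to 39.2% in mature cells, clear of the HC intervals of 14.6 to 21.9% and 14.6 to 23.7%. In immature cells the CSD interval of 26.4 to 34.1% overlapped both HC intervals, of 18.2 to 27.6% and 22.2 to 33.6%. All these intervals cover counting error over the cells of a pool and not the spread between pools. Cells with 2 *Tspo* UMIs at this depth were 1.09%, 2.92% and 5.89% of mature neutrophil-like cells.

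**Figure D2:**
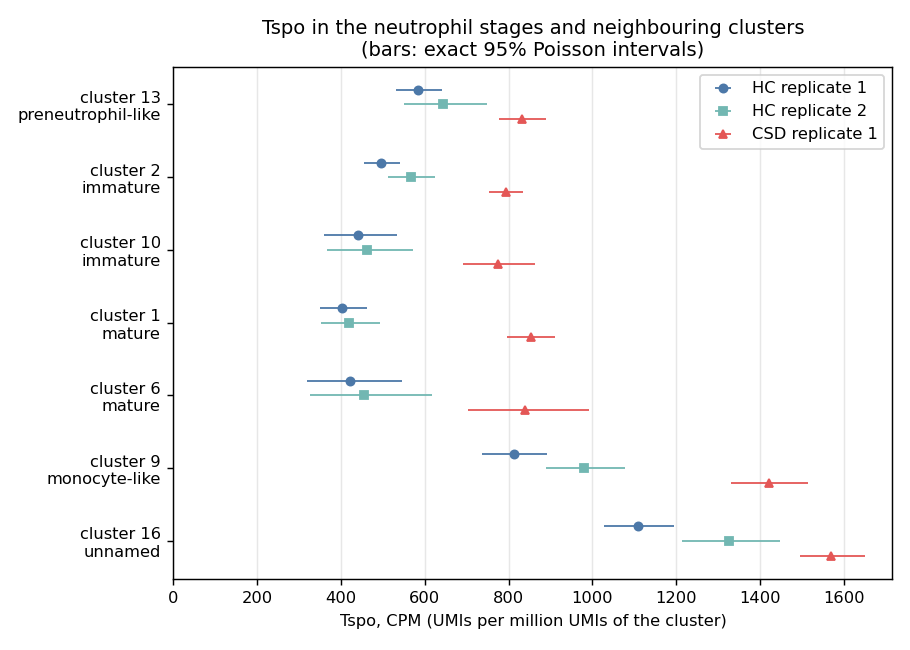
*Tspo* level in CPM, on a linear axis from 0, in the preneutrophil-like cluster, the 4 neutrophil clusters, the monocyte-like cluster and unnamed cluster 16, with 1 point per library and exact 95% Poisson intervals. In the 4 neutrophil clusters the CSD points lie at 774 to 853 CPM and the HC points at 403 to 566 CPM.

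Outside the immature and mature neutrophil-like classes, *Tspo* also stood higher in CSD in most classes. By CPM the CSD library lay above both HC libraries in 13 of these 16 classes, between them in 2 and below them in 1. Of the 16 classes, 13 had at least 20 cells and 10 *Tspo* UMIs in every library. There edgeR called *Tspo* in 0, with 2 at an unadjusted p under 0.05, and DESeq2 called it in 0. Monocyte-like cells gave a log2 difference of 0.66 (standard error 0.22, adjusted p = 0.116), with 910 and 1042 TMM-normalized CPM in the HC libraries against 1547 for CSD, with 0.657% of genes called higher. Conventional dendritic-like cells, which present antigen to T cells, gave 0.68 (standard error 0.24, adjusted p = 0.376), from 542 and 709 to 993. Here the HC libraries themselves differed by 0.39. T-like cells gave 0.48 (standard error 0.28, adjusted p = 0.997) and preneutrophil-like cells 0.49 (standard error 0.27, adjusted p = 0.997). Pro-B-like and pre-B-like cells, the marrow stages of B cells, gave 0.07 and 0.05, both with an adjusted p above 0.98.

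Microglia-like and border macrophage-like cells, the classes to which a TSPO signal is usually assigned, gave no call. In microglia-like cells the TMM-normalized level was 311 and 377 CPM in the HC libraries against 390 for CSD (log2 difference 0.20, standard error 0.28, adjusted p = 0.98 by edgeR). The HC libraries differed by 0.28 from each other, more than CSD differed from their mean, and 0.0557% of genes were called higher. Thinned to 500 UMIs the difference turned to -0.71, from 22, 19 and 9 cells with a *Tspo* UMI in the 2 HC libraries and the CSD library. With free RNA subtracted it was 0.52 (adjusted p = 0.975). In border macrophage-like cells the level was 524 and 629 CPM in the HC libraries against 686 for CSD (0.27, standard error 0.30, adjusted p = 1.00), with 0% of genes called higher, 52 in either direction at an unadjusted p under 0.05. That difference was 0.13 without HC replicate 1, 0.40 without HC replicate 2 and 0.57 when thinned, none past the threshold where a test could be made. Microglia-like cells gave 106, 65 and 59 *Tspo* UMIs per library, and the 95% counting intervals of their levels, 208 to 307, 239 to 394 and 244 to 413 CPM, overlapped in all pairs.

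The difference in neutrophil-like cells was set against that in all other named cells, in which *Tspo* stood at 587, 615 and 911 TMM-normalized CPM. The interaction was 0.33 (standard error 0.10, unadjusted p = 0.00965, adjusted p = 0.189 by edgeR), with 0.631% of genes called. It was above 0 in 13 of 13 alternatives and past the threshold in 1, with no filter on genes (0.46, adjusted p = 0.0276). It was smallest, at 0.17 (adjusted p = 0.467), with a higher UMI minimum per cell. Against monocyte-like cells alone the difference was 0.22 (adjusted p = 0.58), and against microglia-like cells alone 0.73 (standard error 0.21, adjusted p = 0.16). A larger rise of *Tspo* in neutrophil-like cells than in these comparators was thus not called. The other named cells were summed per library, so their difference, 0.60 in log2, also depends on their class mix. Fibroblast-like cells held 5.44% and 5.98% of all UMIs in cells of the HC libraries against 0.748% for CSD. Microglia-like cells held 4.63% and 4.01% against 1.92%. The share of cDC-like cells, higher in *Tspo*, also fell, from 9.97% and 6.07% to 3.78%. What the mix did to the interaction was not tested.

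**Figure D3:**
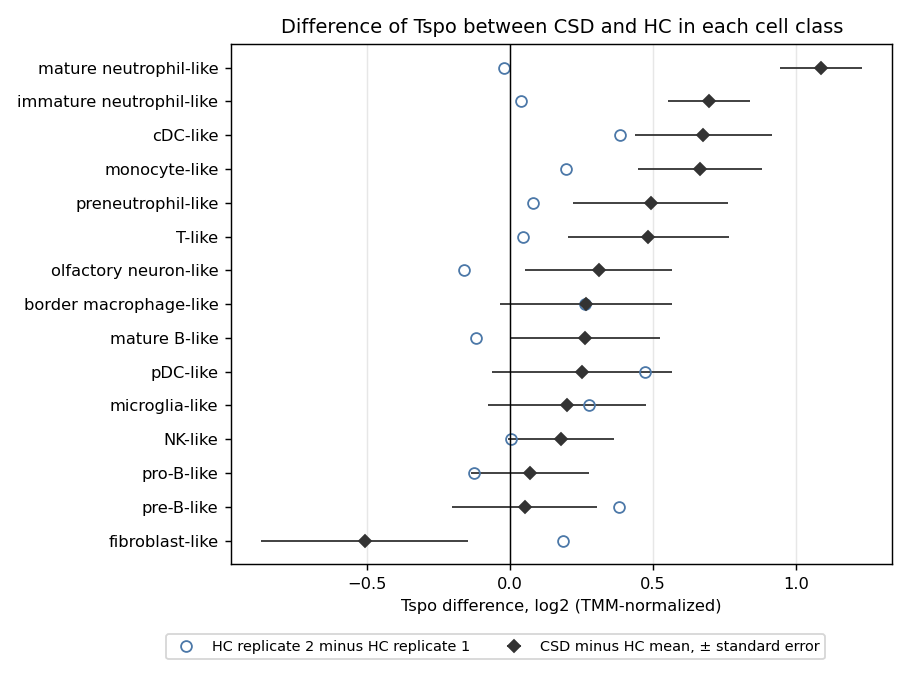
Difference of *Tspo* between CSD and HC, log2 of TMM-normalized levels, in the 15 classes with enough cells and UMIs. Diamonds are the fitted differences with their standard errors and circles the difference between the 2 HC libraries. The mature and immature neutrophil-like classes lie at 1.09 and 0.70 with HC libraries that differ by under 0.05, and fibroblast-like cells alone lie below 0, at -0.51.

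Other measures moved with the library too. *Tspo* in empty droplets was higher in CSD (779 CPM) than in the HC libraries (550 and 586). Free RNA was estimated at 18.0% and 24.1% of the UMIs of neutrophil-like cells in HC and 7.43% in CSD, from fibroblast markers. Other lists gave other shares. Microglia markers stood at 25.4%, 24.5% and 17.7% of their empty-droplet level, olfactory neuron markers at 20.8%, 22.9% and 17.8%, and border macrophage markers at 29.3%, 31.9% and 14.4%. Values after subtraction rest on the fibroblast estimate alone. The 8 fibroblast markers, all detected, summed to 527, 557 and 63.7 CPM in neutrophil-like cells. Microglia markers, with 9, 9 and 8 of 9 detected, summed to 438, 383 and 151 CPM. The 8 erythroid markers, all detected, summed to 1636, 2830 and 4405 CPM. Monocyte markers, all 10 detected, summed to 1322, 1535 and 1694 CPM. The part of these in the *Tspo* difference was not tested, apart from the subtraction of free RNA, after which the difference was 0.84 (adjusted p = 0.877 by edgeR). Cells marked by the highest doublet scores made up 14.9% of cluster 10 and 1.72% of cluster 1. With the top scores removed from every library the neutrophil-like difference was 0.77 (adjusted p = 0.195).

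No gene that acts with TSPO was called in neutrophil-like cells. Of 16 partners and ligands, 4 were seen in enough of these cells to be tested. By edgeR 0 were called, where 1 of all 1192 genes was, so that 0 of 4 says little about them, 0 had an unadjusted p under 0.05, and DESeq2 called 0. *Dbi*, the diazepam-binding inhibitor and an endogenous TSPO ligand, stood at 184 and 149 TMM-normalized CPM in the HC libraries against 144 for CSD (log2 difference -0.22, standard error 0.18). *Vdac2*, an outer membrane channel, stood at 112, 121 and 123 CPM (0.08, standard error 0.16). *Slc25a5*, the inner membrane ADP/ATP carrier, gave 0.11, and *Prkar1a*, a regulatory subunit of protein kinase A, gave 0.11. The median of the 4 was 0.09, against -0.01 for all genes tested. None of 15 porphyrin and haem genes was seen in over 15% of neutrophil-like cells, so none was tested there.

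By class, over the 15 with at least 20 cells in every library, which leaves out mast cell- or basophil-like, erythroid-like and myeloid progenitor-like cells, the partners were arranged differently from *Tspo*. *Dbi* was highest in monocyte-like cells, as *Tspo* was, at 699 CPM, and lowest in mature neutrophil-like cells, at 125 CPM. *Vdac1*, *Vdac2* and *Vdac3* were each lowest in mature neutrophil-like cells, at 19.4, 89.6 and 29.3 CPM. *Vdac2* was highest in microglia-like cells, at 233 CPM, where *Tspo* was near its lowest, *Vdac1* was highest in olfactory neuron-like cells (199 CPM), and *Vdac3* in pro-B-like cells (139 CPM). In the comparison of neutrophil-like with monocyte-like cells, 11 partners were tested, of which 1 was called higher and 6 lower in neutrophil-like cells, where 58% of all genes were called. *Star*, which moves cholesterol into mitochondria, had 15 UMIs in all cells. *Cyp11a1*, the side-chain cleavage enzyme of steroid synthesis, had 109, with at most 3.10 CPM in any of the 15 classes. The *Cyp11a1* level in the classes left out was not examined. Of the same list, *Stard3*, *Fdx1* and *Fdxr* had 596, 575 and 219 UMIs. *Tspo2*, the paralog of erythroid cells, had 200 UMIs and was at 0 in microglia-like and border macrophage-like cells.

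Other genes whose products are, or are being developed as, targets of neuroinflammation PET differed from *Tspo* in where they were found among the same 15 classes. *P2ry12*, a purine receptor of microglia that also served here as a marker, was at 1824 CPM in microglia-like cells and 54.9 in the next class. *Csf1r*, the receptor for macrophage growth factor, was highest in microglia-like cells (707 CPM), then in border macrophage-like cells (395 CPM). *Ptgs1*, cyclooxygenase 1, was at 484 and 73.9 CPM in the same 2 classes, and *P2rx7*, an ATP-gated channel, at 49.8 and 43.3 CPM. *Ptgs2*, cyclooxygenase 2, was highest in mature neutrophil-like cells (100 CPM), as were *Trem1*, a myeloid receptor (188 CPM), and *Fpr1*, the formyl peptide receptor (181 CPM). *Tspo* in microglia-like cells was 27.5% of its level in monocyte-like cells. In the test of microglia-like against neutrophil-like cells, 8 of 10 such targets were tested, 5 were called higher in microglia-like cells and 3 lower, where 59.8% of all genes were called. Only *Trem1* and *Fpr1* could be tested between CSD and HC in neutrophil-like cells. *Fpr1* stood at 91.5 and 139 CPM in the HC libraries against 161 for CSD (log2 difference 0.49, standard error 0.28, adjusted p = 0.46), and *Trem1* at 121, 151 and 109 CPM (-0.32, standard error 0.20, adjusted p = 0.49).

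**Figure D4:**
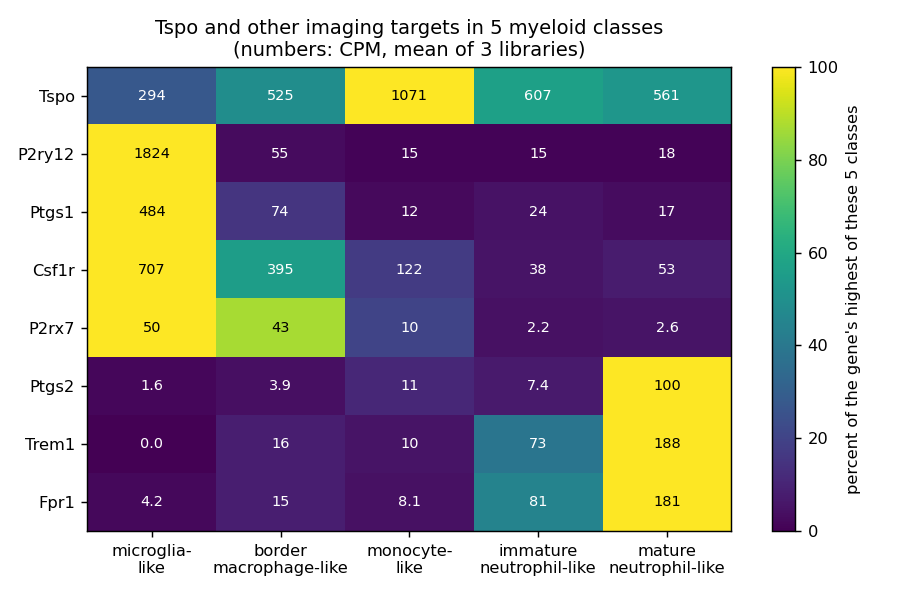
Level of *Tspo* and 7 other imaging targets in 5 myeloid classes. Numbers are CPM, the mean of 3 libraries, and colour gives the percent of each gene's highest value among these 5 classes. *Tspo* peaks in monocyte-like cells at 1071, while *P2ry12*, *Ptgs1*, *Csf1r* and *P2rx7* peak in microglia-like cells and *Ptgs2*, *Trem1* and *Fpr1* in mature neutrophil-like cells.

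The genes most like *Tspo* across classes were sought among 7361 genes with at least 200 UMIs, over the 15 classes with at least 20 cells in every library. Likeness was the Pearson correlation of log2(CPM + 10), and it is a description, since all classes share the same 3 libraries and their free RNA. *Tln1*, encoding talin, which ties integrins to actin, came first at 0.88. *Sh3bgrl3* (0.84), *Sept9*, a septin (0.83), *Serf2* (0.83), *Mapkapk3*, a kinase downstream of p38 (0.83), and *Pstpip1*, a cytoskeletal adaptor (0.83), followed. *Vim*, the intermediate filament vimentin, gave 0.81, and *Vav3*, a guanine exchange factor, *Arpc2* and *Arpc1b*, subunits of the Arp2/3 complex, gave 0.80 each. Of these 10 genes, 8 stayed among the first 10 with log2(CPM + 100) and 4 did with Spearman's rank correlation. *Dbi* had a correlation of 0.37, *Vdac1* of -0.48, *Vdac2* of -0.39 and *Vdac3* of -0.26.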

How the data were processed

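Droplet scRNAseq (10x Chromium 3′ v2) was run on 3 meningeal pools in 3 lanes of 1 chip. The deposited values are whole-number UMI counts per gene and barcode, made by the authors with Cell Ranger 2 on mm10 (submitters' processing notes), with no cells called and no normalization. The libraries were told apart by the number ending each barcode.

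Cells were clustered with scanpy 1.11.5 (50 components, mutual-nearest-neighbour correction, Leiden resolution 1), leaving out *Tspo*, the gene lists and genes the study labels as changed. Classes were named from markers, and doublets were kept (the top 5.1% of Scrublet scores removed as an alternative). Counts were summed per library and class and tested with edgeR 4.0.16 (glmQLFit, glmQLFTest, TMM, two-sided, Benjamini-Hochberg, threshold 0.05) or DESeq2 1.42.0 under R 4.3.3, on genes seen in over 15% of cells (CSD against HC) or passing filterByExpr (levels). The HC pair gave the spread, with the lone CSD library assumed to vary alike. Libraries are pools, and p-values for CSD against HC rest on the spread between the HC pools, with information shared across genes. In the level tests library was a block, so their p-values rest on how class differences varied between libraries, with information shared across genes. In the interaction tests library was a block too, and the spread came from the HC pair alone, again with information shared across genes. Poisson and Clopper-Pearson 95% intervals cover counting error only. Scripts were tested on simulated data. The members and lists were chosen with earlier results of these data known. Named genes were *Tspo*, *Dbi*, *Tspo2* and the *Vdac* genes, list genes called in neutrophil-like cells, and the 10 genes most like *Tspo*. *Slc25a5*, *Prkar1a*, *Star*, *Cyp11a1*, *Stard3*, *Fdx1*, *Fdxr*, *Mgp*, the few called genes and the imaging targets were named after their values were seen. No RefSeq promoter entry for *Tspo* was used here.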

Additional observations from a re-analysis of the deposited data

Results flagged for a closer look

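The difference of *Tspo* between CSD and HC was larger in mature than in immature neutrophil-like cells, by 0.47 on the log2 scale, in a test of the difference itself (adjusted p = 0.00902 by edgeR). That test was added after the data were seen, and it passed in 5 of 11 alternatives, with an adjusted p of 1.00 by DESeq2, 0.131 at a 5% mitochondrial limit and 0.249 with DESeq2 size factors. Fibroblast-like cells went the opposite way from neutrophil-like cells, with a log2 difference of -0.51 (adjusted p = 0.75), at 359 and 421 CPM in the HC libraries against 265 for CSD. That CSD value rests on 19 *Tspo* UMIs in 22 cells, and the difference between these 2 classes was not tested.

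Signal was also found outside the classes compared. Unnamed cluster 16, with the granule protease genes *Prtn3* and *Ctsg* and the mitotic kinase gene *Aurkb* among its leading genes, held *Tspo* at 1109, 1327 and 1570 CPM, above monocyte-like cells in every library. It scored highest on a marker list other than the myeloid progenitor one. Its 10 leading genes held 1 marker of that list and 2 of another list. Empty droplets of CSD replicate 1 held *Tspo* at 779 CPM, above the 550 and 586 CPM of the HC libraries.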

How the results depend on the processing

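In neutrophil-like cells the CSD difference of *Tspo* stayed above 0 in 16 of 16 alternatives, at 0.71 with library totals, 0.88 at a 5% mitochondrial limit, 1.05 with no filter on genes, 0.90 with equal weight per cluster and 0.48 as the mean log2 count per cell, and 0.80 to 0.84 with either HC library left out. Genes called there went from 1 to 66 (28 higher) at the 5% limit, 56 (15 higher) with library totals, 261 with no filter, 13 by DESeq2, 10 when thinned, 6 without neighbour correction, 5 at Leiden resolution 2 and 0 after subtraction of free RNA. The interaction with all other named cells was 0.46 with no filter and 0.17 with a higher UMI minimum, 0.18 at resolution 2 and 0.22 without neighbour correction. The mature minus immature interaction was 0.41 at the 5% limit, 0.43 with DESeq2 size factors, 0.40 with library totals, 0.43 by DESeq2, 0.59 without free RNA, 0.82 when thinned and 0.42 to 0.49 with an HC library left out. In microglia-like cells thinning gave -0.71, subtraction of free RNA gave 0.52, and either HC library left out gave 0.05 to 0.33. The cause of these shifts was not tested.

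Between classes, neutrophil-like minus monocyte-like was -0.87 with library totals and -0.41 when thinned, and neutrophil-like minus border macrophage-like was 0.13 with library totals. The mature minus immature level was no longer called with library totals (-0.12), DESeq2 (-0.26) or thinning (-0.19), and ran from -0.44 to -0.13 with a library left out. Preneutrophil-like minus neutrophil-like was 0.23 with library totals, and it turned to -0.0337 without doublets, -0.0498 at resolution 2, -0.0683 with no filter and -0.214 when thinned, with -0.01 to 0.20 on leaving out a library (-0.00136 without HC replicate 1 and -0.00868 without HC replicate 2). Leaving out CSD replicate 1 and every setting for the mature minus immature interaction and for each of these stages between CSD and HC were added after seeing the data. Microglia-like cells stayed below the other 3 classes in all 14 alternatives. At 4 of 7 other settings for cells, clusters and counts a myeloid progenitor-like class stood above monocyte-like cells in mean CPM.

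No paired analysis was made, since the pools held different mice and no label pairs an HC pool with the CSD pool. With an HC library left out, the CSD difference is a value with no test. The depth of microglia-like cells, at 59 to 106 *Tspo* UMIs per library, limits any statement on them.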
